A study of Mus musculus with 9 samples.

Results

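Genes with a large accumulation of RNA polymerase II (Pol II) around the transcription start site (TSS) were examined in mouse liver at 3, 12 and 18 months of age. Candidates were protein-coding genes of GENCODE vM21 (build GRCm38) on chromosomes 1 to 19 that were longer than 2 kb and lay more than 2.5 kb from the next protein-coding gene. They also needed a mean of at least 20 sense reads in the promoter-proximal window (TSS ± 200 bases) and at least 100 in the gene body, defined as the transcript without its first and last 200 bases. The pausing index (PI) is the read density of that window over the density of the gene body, and a gene was a member when its mean PI over the 9 libraries was 5 or more. This gave 345 members of the 2654 genes that met the limits on length, neighbours and reads, which are called the fitted genes here, and of 21938 protein-coding genes in all. The PI itself chose the members, so its height is given as a description. The rule does not use age, but 3-month libraries, where the PI was highest, weigh most in the mean.

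The measurements come from tNET-seq, a tissue form of native elongating transcript sequencing, in which the 3′ end of each chromatin-bound RNA marks the base that a polymerase had reached. The mice were male C57BL/6N animals on a standard diet, with no other treatment or allele. Fresh whole liver was fractionated with alpha-amanitin present to hold Pol II in place, and each age had 3 libraries from separate animals. Whole liver mixes cell types, so a change of cell make-up and a change within cells cannot be told apart from these data. Depth ran from 15003713 to 50707801 reads per library, and Pearson correlations of log2 gene-body reads across fitted genes, which are not independent replicates, were 0.983 to 0.994 within an age and 0.965 to 0.991 between ages. Hepatocyte markers were the most abundant marker set, at a summed 991 to 1599 RPKM (reads scaled to region length and library size), against at most 23.4 for immune, 13.6 for erythroid, 8.41 for endothelial, 5.27 for stellate and 2.14 for bile duct cell markers.

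Promoter-proximal pausing is a step of early elongation. After initiation, Pol II moves a short distance, is held there by DSIF and NELF, and is released when the kinase P-TEFb phosphorylates these factors and Pol II itself. Pausing is known for genes that respond quickly to signals and for CpG-rich promoters, and a paused gene can be transcribed at any level.

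In the leading members, many window reads ended at 1 base. The sequences below are the 30 bases of the transcribed strand that end at the position with the most reads, in GRCm38, and the capital marks that last base. The first set holds the 10 members with the highest PI and the 5 with the most window reads, 12 genes in all, and is shown because a large share of their window reads ended at these bases.
Cdk14: ggaggagcaggacgaggcgccgccttcccC
Mboat2: gggcgcgccgctgcatccccatcctcggcG
Bmp7: ctcccaccccggcccgcctcctcgctctcT
Lamc1: ggaagtcgggggtcggcgcacagtgcaggC
Fam184a: cggcggccgcggagtctcggggcccggtgG
Adcy2: ctggagcccagcctggccgtcggggggcgG
Csnk1e: cgagcgcggggcggacacgcgcatccgcgC
Hdac4: gccccttcgcagcgcccgcgaagcggggcT
Memo1: gggtaggggcggcggcggcggcggcgactC
Ube3c: cgctgagcctcggggggggcggcgcgggaC
Tob1: gaggcggggcgcgcgccgcggcagaaggaG
Clint1: aattcccggcgtgcggcgcgcggcgcgggC

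These stretches lie at chr5:5380216-5380245 (Cdk14, minus strand), chr12:24831595-24831624 (Mboat2, plus), chr2:172940333-172940362 (Bmp7, minus), chr1:153332734-153332763 (Lamc1, minus), chr10:53751097-53751126 (Fam184a, minus), chr13:68999633-68999662 (Adcy2, minus), chr15:79441838-79441867 (Csnk1e, minus), chr1:92180532-92180561 (Hdac4, minus), chr17:74295019-74295048 (Memo1, minus), chr5:29569386-29569415 (Ube3c, plus), chr11:94211417-94211446 (Tob1, plus) and chr11:45851898-45851927 (Clint1, plus). The last base lay in the first exon of the transcript used, outside the coding span, in Mboat2, Fam184a, Lamc1 and Ube3c, at 1, 26, 52 and 173 bases after the TSS. In Csnk1e it lay 161 bases after the TSS, outside every annotated exon of the gene. In Cdk14, Bmp7, Adcy2, Hdac4, Memo1, Tob1 and Clint1 it lay upstream of the annotated TSS, by 19, 12, 92, 191, 156, 8 and 124 bases, and only for Cdk14 was that base inside an exon of another transcript of the gene. The 30 bases were 73.3% to 86.7% G and C.

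A second set holds 3 liver genes that are among those with the most window reads in members whose reads were spread over many positions.
Cps1: gtcgccacacagctttctttcacactggtT
Cyp2j5: cttttctacagaggagtgtgcaaggatccC
Fetub: accagacttgcaaagctcttgattccggaC

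They lie at chr1:67123065-67123094 (Cps1, plus strand), chr4:96664015-96664044 (Cyp2j5, minus) and chr16:22920302-22920331 (Fetub, plus). In these 3 genes the last base fell in the first exon, outside the coding span, and G and C made up 50% of the stretch. A further gene of this kind, not shown, had its highest base outside the first exon and within the coding span, with 43.3% G and C. The highest position held 3.64% to 5.95% of the window reads in the 3 genes and 29.3% to 94.7% in the first set.

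Over all members, the highest position held a median of 14.7% of the window reads (7.85% over the fitted genes). In 56 members it held 50% or more, which was so for 68 of the 2654 fitted genes, in 77 it held 20% to 50%, and in 212 less than 20%. They are called single-position, intermediate and spread members below. In 49 of the 56 single-position members the same base was highest in all 9 libraries. The base lay upstream of the TSS in 29 of these 56 (51.8%), in 26.1% of all members and in 13.1% of the fitted genes. It lay 20 to 100 bases after the TSS, the usual place of a pause, in 57.5% of the spread members, 21.4% of the single-position members and 57.1% of the fitted genes. More than 50% of the window reads lay upstream of the TSS in 78 members (22.6%), beside 9.19% of the fitted genes. The share of a gene's window reads from 20 to 100 bases after the TSS had a median of 43.3% in members (51.2% over the fitted genes). No member had its highest position at an annotated exon end, where splicing intermediates are read, although 148 fitted genes did. The highest counts at any base of a file, from 4126 to 5396, varied less than depth did. At the Cdk14 base the shallowest library, 18-month replicate 1, had 1769 reads and the deepest, 12-month replicate 2, had 2915. Whether copies of a molecule were collapsed by their barcodes is not given in the sources used here, and the part of such copies, or of a limit on counts, in these positions was not tested. The PI of Cdk14 was highest, at 7620 and 7234, in 12-month replicate 1 and 18-month replicate 1, the libraries with the fewest reads. Over the 56 single-position members, the order of the PI by depth differed between the ages. Of the 56, at 18 months the PI was highest of its age in 33 in replicate 2, the deepest library of that age, and in 21 in replicate 1, the shallowest. At 3 months replicate 3, the deepest, had the highest median PI of these members, at 36.6, beside 20.5 and 35.8 in replicates 1 and 2. By contrast, 12-month replicate 2, the deepest of all, had the lowest median PI of its age, at 11.9, beside 15.8 and 17.9. It had the lowest PI of its age in 28 of the 56 and the highest in 3.

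**Figure D1:**
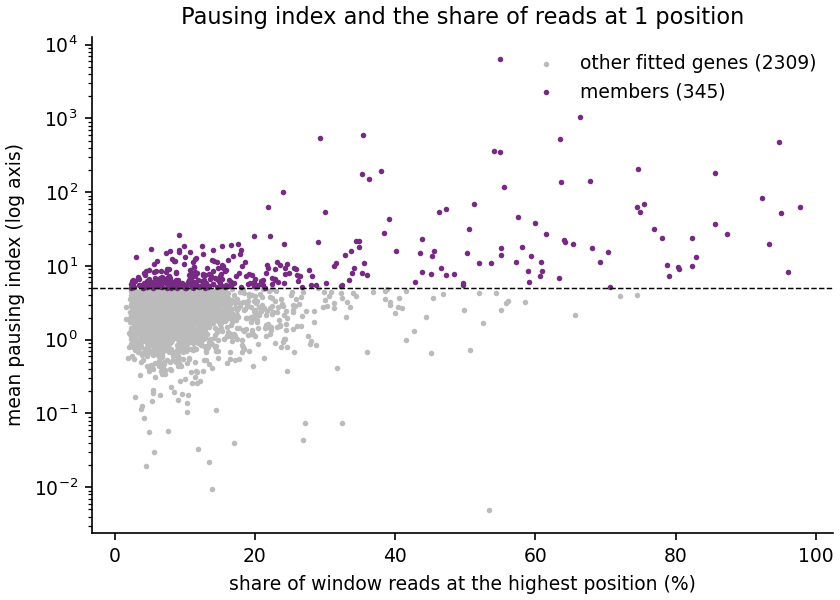
Mean PI over 9 libraries (vertical, log axis) against the percent of window reads at the highest position (horizontal), 1 point per fitted gene. Members (345, purple) lie on or above the dashed line at a PI of 5, and those with a PI of 100 or more all have over 20% of their reads at 1 position.

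The median PI of the members was 11.2, 10.6 and 10.3 in the 3-month libraries, 6.72, 7.09 and 6.94 in the 12-month libraries and 4.76, 5.85 and 3.05 in the 18-month libraries. The means were 10.7 ± 0.446, 6.92 ± 0.185 and 4.55 ± 1.41 (SD, n = 3), and the libraries of the ages did not overlap. Over the fitted genes the corresponding means were 3.06 ± 0.208, 2.18 ± 0.110 and 1.56 ± 0.409. Averaged within an age, the PI was 5 or more in 341 members at 3 months, in 297 at 12 and in 155 at 18 months. The lowest library, 18-month replicate 3, had the lowest PI of its age in 180 of the 212 spread members. Among the 3-month libraries the order depended on read shape. Replicate 1 had the highest PI in 126 of the 212 spread members and the lowest in 40 of the 56 single-position members.

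**Figure D2:**
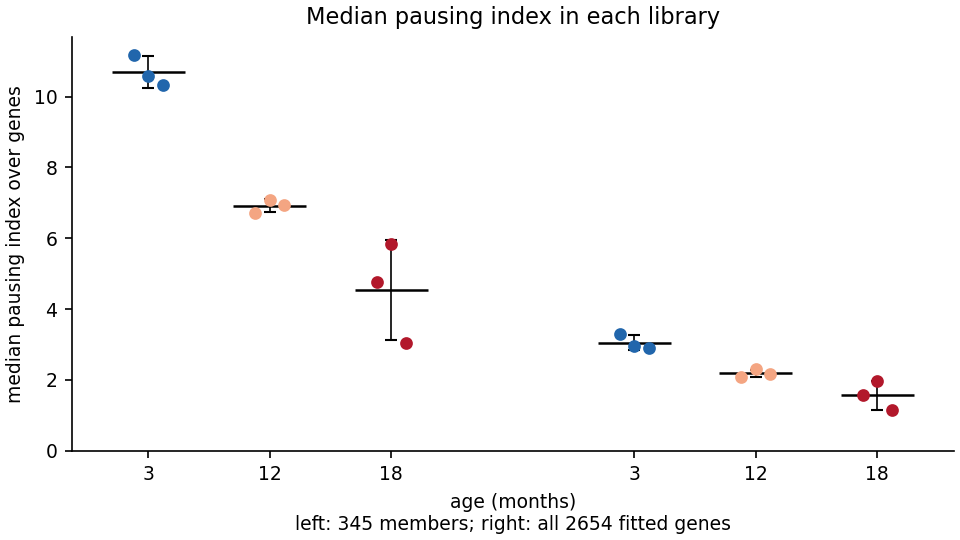
Median PI over genes (vertical) in each of 9 libraries, by age in months (horizontal), for the 345 members on the left and all 2654 fitted genes on the right. Points are libraries, the line is their mean and the bar ± 1 SD (n = 3). The libraries of the ages do not overlap on either side.

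The mean PI of a member ran from 5.01 to 6341 with a median of 7.48 (2.33 over the fitted genes). It was under 10 in 232 members, from 10 to under 100 in 96, and 100 or more in 17, of which 11 were single-position members. At the threshold, Nfat5 (5.02), Colec10 (5.02) and Rap1gds1 (5.01) were just inside and Pard6b (4.996), Ostc (4.99) and Nectin3 (4.98) just outside. With the highest position of each window left out, 230 of the 345 members still met the rule. The study's own pausing analysis kept only genes above 1 RPKM whose PI was at most 10 in all samples. Only 65 members had a mean gene-body level above 1 RPKM, so many members lie outside the genes the study analysed for pausing. In 47 members the PI was under 5 at both 12 and 18 months, so that they entered through the 3-month libraries alone and their fall from 3 months is part of what the rule selected. Among the genes named below these are Mff, Fcho2, Fam126a, Cers6 and Reln. In the same way, 15 members had a mean of fewer than 20 window reads at both 12 and 18 months and passed the read minimum through the 3-month libraries, among them Mthfd2l.

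In the spread members the sense reads formed 1 peak after the TSS. Its top lay 30 to 39 bases after the TSS at every age. The density there was divided by each gene's mean gene-body density over all 9 libraries, the same for every age. It reached 44.9 ± 9.49, 29.7 ± 9.34 and 16.8 ± 5.43 at 3, 12 and 18 months (mean over 212 genes, SD over 3 libraries). In the 2174 other fitted genes with spread reads the peak bins at the same ages reached 9.21 ± 1.58, 6.30 ± 1.62 and 4.16 ± 1.05. Antisense spikes 220 to 229 and 400 to 409 bases after the TSS came almost wholly from single genes, Kif5a (98.8% of the bin at 3 months) and Papolg (99.3%). The sense peak had no such leader, and its largest share from a single gene was 8.76%, from Tc2n. Its median over the 212 genes at 3 months was 12.85, well below the mean of 44.9, so genes with high values raised the mean. The median in the bin from 40 to 49 bases was 13.05.

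**Figure D3:**
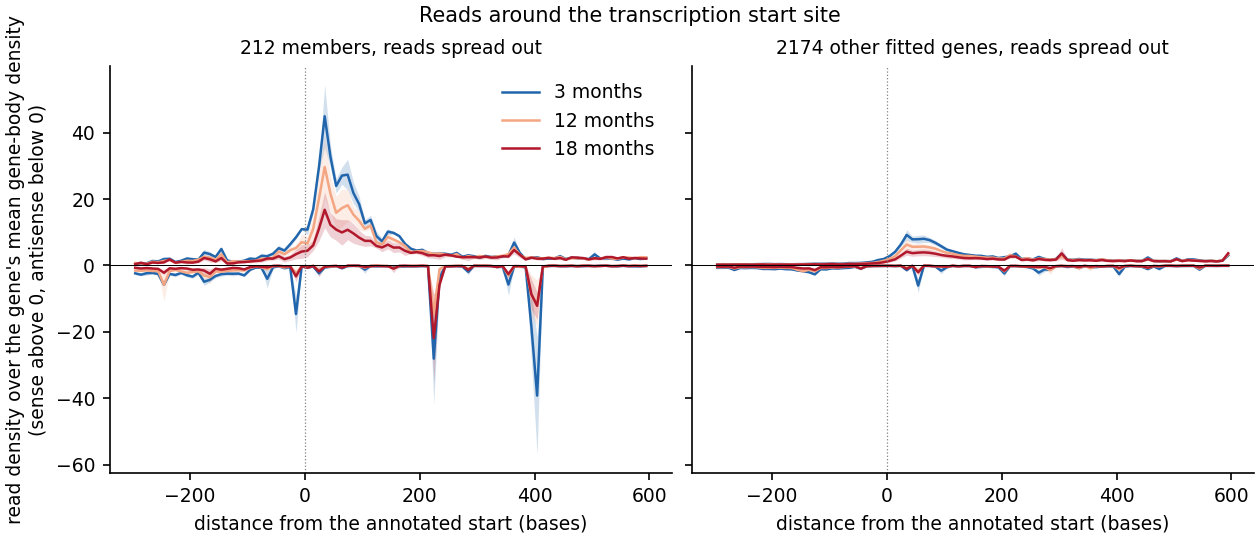
Read density in bins of 10 bases (vertical, sense above 0 and antisense below) against distance from the TSS in bases (horizontal). Densities are divided by each gene's mean gene-body density over all 9 libraries and averaged over genes. The panels hold 212 members and 2174 other fitted genes with less than 20% of window reads at 1 position. Lines are means of 3 libraries and bands ± 1 SD. The sense peak of the members lies 30 to 39 bases after the TSS at each age and is lower at each later age, and the antisense spikes after the TSS come from Kif5a and Papolg.

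Members were long genes with few gene-body reads. Their median length was 61966 bases (33789 over the fitted genes) and their median gene-body level 0.522 RPKM (1.32). A low gene-body density raises the PI, so this is part of what the rule selected. Window reads were a median of 65.8 per library (44.4). Upstream antisense reads, counted over the 700 bases before the TSS, had a median of 7.22 (8.11) and a median density of 0.0519 of the window's (0.0872). The window density is the numerator of the PI, so the higher window reads and the lower antisense ratio are also partly set by the rule. Density around the transcript end over the gene body was 1.14 (1.19). Exon number was near that of the fitted genes, at a median of 11 (10).

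The promoters, taken from 250 bases before to 50 bases after the TSS, were rich in G and C. The median was 68.0% in members (63.3% over the fitted genes), and the CpG observed-over-expected ratio was 0.866 (0.807). A GC box, GGGCGG on either strand, was found in 84.6% of member promoters (72.1%). Of the other motifs, CCAAT was found in 36.8% (37.2%), the E-box CACGTG in 11.3% (11.1%), the CRE TGACGTCA in 3.77% (3.65%), the ETS motif CCGGAAG in 13.9% (14.9%) and GAGAG in 64.3% (62.1%), each on both strands, and the NRF1 motif in 1.45% (2.22%) and the YY1 motif in 1.16% (1.58%). A palindrome of 10 letters was found in 0.290% (1.09%). The last 30 bases of RNA at the highest position were 83.3% G and C at the median in single-position members, 76.7% in intermediate members, 70.0% in spread members and 66.7% over the fitted genes.

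A TATAA on the sense strand 45 to 15 bases before the TSS occurred in 10 members (2.90%) and 2.75% of the fitted genes, and in none of the 56 single-position members. The 30 bases of the match region are shown for the 2 highest PIs that fell in this group, with TATAA in capitals.
Jpt1: gtgggccctattggctcTATAAaatgggag
Bbx: caatggcaggctgccttaTATAAaatgagt

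They lie at chr11:115514403-115514432 and chr16:50432406-50432435, both on the minus strand, with the match starting 28 and 27 bases before the TSS. Jpt1, a small microtubule-associated protein, had a mean PI of 26.4 and Bbx, an HMG-box protein, of 10.5. Their highest positions lay 42 and 28 bases after the TSS and held 9.13% and 5.64% of the window reads, so both were spread members.

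Cdk14, a cyclin-dependent kinase active in Wnt signalling, had the highest PI. It was 6397, 6756 and 5975 at 3 months, 7620, 4286 and 6725 at 12 months and 7234, 6592 and 5482 at 18 months. The ages overlapped, and the log2 difference between 18 and 3 months was 0.00 (edgeR, SE 0.25, adjusted p = 0.988). Its gene body held only 0.0503 to 0.0701 RPKM, while the window held 249 to 435 RPKM. Its highest base held 55.0% of the window reads, and without that base its mean PI was 2838.

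Mboat2, which acylates lysophospholipids, followed with a mean PI of 1056. Its values were 1180, 1967 and 1615 at 3 months, 335, 407 and 836 at 12 months and 1089, 1658 and 416 at 18 months. The 12-month libraries lay below all 3-month libraries, and the 18-month libraries overlapped both. Next were Bmp7, a bone morphogenetic protein (593), Lamc1, a laminin chain of basement membranes (540), Fam184a (529), Adcy2, an adenylyl cyclase (486), Csnk1e, a casein kinase that acts on clock proteins (358), Hdac4, a histone deacetylase (355), Memo1, known from cell motility (210), and Ube3c, a ubiquitin ligase (197). Of these 10, only Fam184a, Hdac4 and Memo1 passed the test for a change of pausing at 18 against 3 months, all downward. Memo1 (-1.13) lost its call without its highest base (-0.59), with at most 5 reads per position (-0.55) and with annotated gene ends (-1.14).

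Tob1, an antiproliferative protein that recruits deadenylases to mRNA, had the most window reads, 10079 on average, with a mean PI of 53.1. Its PI was 73.5, 70.4 and 52.5 at 3 months, 57.3, 26.5 and 49.9 at 12 months and 45.02, 48.99 and 53.97 at 18 months. The ages overlapped, and the change at 18 against 3 months was -0.40 (SE 0.27, adjusted p = 0.194). Clint1, a clathrin adaptor, had 2981 window reads. Its 18-month values of 181, 142 and 111 overlapped the 3-month values of 88.2, 111 and 109, with a log2 change of 0.47 (SE 0.40, adjusted p = 0.296).

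**Figure D4:**
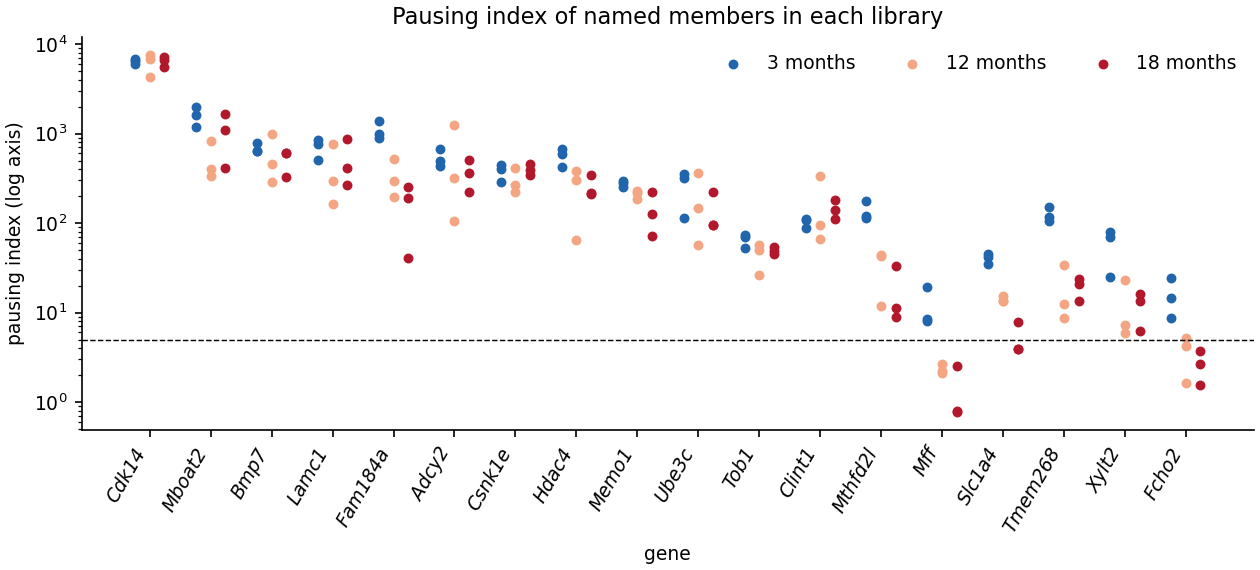
PI (vertical, log axis) of 18 named members in each of 9 libraries (horizontal, genes), coloured by age. The dashed line is the PI of 5 that chose the members. Cdk14, Csnk1e and Clint1 overlap between ages, whereas Mthfd2l, Mff, Slc1a4 and Tmem268 have all 18-month libraries below all 3-month libraries.

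To ask whether polymerase near the start differed with age, the share of reads in the window against the gene body was tested in 1 edgeR fit over all 9 libraries and 2654 genes, with Benjamini-Hochberg adjustment at 0.05. At 18 against 3 months, pausing fell in 260 of 345 members (75.4%) and rose in none, beside 66.7% called among all fitted genes. The median log2 change was -1.28 in members and -0.95 over the fitted genes, and 329 of the members had a negative value. With window and gene body set by the ends of the coding sequence, 137 members (39.7%) were called, beside 32.4% of the fitted genes. Of the 260 calls, 45 were among the 47 members whose mean PI was under 5 at both later ages, which entered through the 3-month libraries alone. Another limit, the minimum of 20 window reads, was met only at 3 months in 15 members. Of the 289 members that neither limit admitted in this way, 208 were called (72.0%). Without overlap between the libraries of the ages, the PI was lower at 18 months in 256 members (74.2%) and in 72.7% of the fitted genes. A group chosen on the 12-month libraries alone, where the PI was 5 or more in 325 genes, had 235 called (72.3%) with a median of -1.24. The PI of the 3- and 18-month libraries did not choose that group, but their reads counted toward the read minimum that every fitted gene had to meet. With 18-month replicate 3 left out, 204 members were called, and 194 were called whichever library was left out.

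The share of members called varied with read shape. Pausing fell in 186 of the 212 spread members (87.7%, median log2 change -1.39), in 51 of the 77 intermediate members (66.2%, -1.25) and in 23 of the 56 single-position members (41.1%, -0.76). The differences between these shares were not tested. With the highest position of every window left out, 269 members were called (78.0%, beside 67.3% of the fitted genes), among them 28 of the 56 single-position members (median -0.92). In fitted genes with a PI under 5, the shares by the same limits were 61.4% below 10% of the reads at 1 position, 76.2% from 10% to 20%, 69.1% from 20% to 50% and 58.3% (7 of 12 genes) at 50% or more. The corresponding shares in members were 81.5%, 94.2%, 66.2% and 41.1%.

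**Figure D5:**
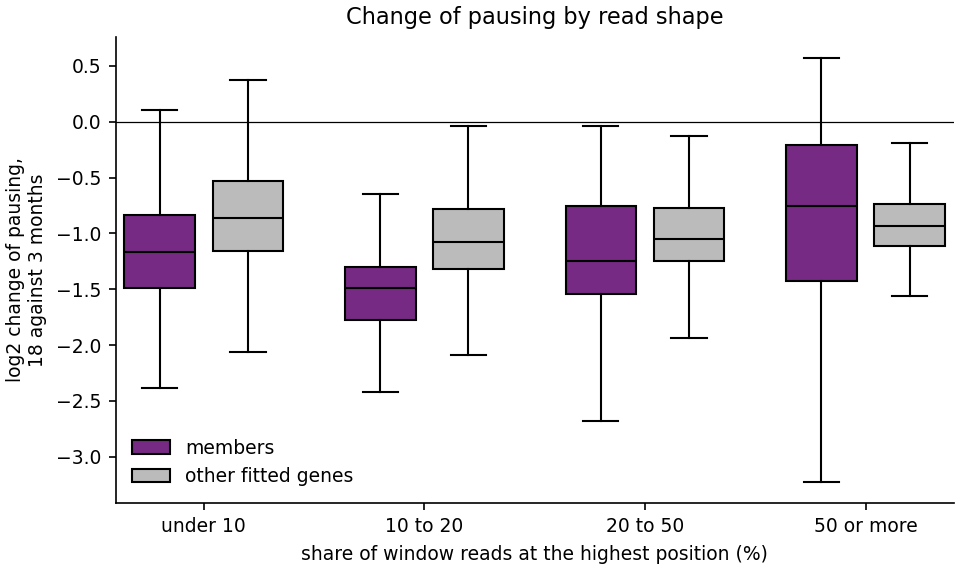
Log2 change of pausing at 18 against 3 months (vertical) by the percent of window reads at the highest position (horizontal), for members (purple) and other fitted genes (grey). Boxes span the quartiles with the median as a line, and whiskers reach the last value within 1.5 box lengths. The medians of the members are -1.17, -1.49, -1.25 and -0.76 from left to right, and those of the other genes -0.86, -1.08, -1.05 and -0.93.

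The largest falls without overlap were in Mthfd2l, Fam184a, Mff, Slc1a4 and Tmem268. Mthfd2l, a mitochondrial enzyme of one-carbon metabolism, had a PI of 113, 121 and 177 at 3 months and of 32.8, 11.4 and 8.95 at 18 months. Every 18-month library was below every 3-month library, with a log2 change of -3.22 (SE 0.48, adjusted p = 0.000606). Its window reads were 75, 73 and 133 at 3 months, 17, 15 and 25 at 12 months and 11, 12 and 8 at 18 months, so that the read minimum of 20 was met through the 3-month libraries and its falls at both later ages are partly fixed by that limit. Fam184a went from 988, 893 and 1393 to 189, 250 and 40.7, by -3.10 (SE 0.51, adjusted p = 0.000905). Its window level fell from 23.9, 27.0 and 37.7 RPKM to 8.48, 8.28 and 4.16.

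Mff, which recruits the mitochondrial fission factor Drp1, had a PI of 8.12, 8.44 and 19.4 at 3 months, 2.11, 2.21 and 2.698 at 12 months and 0.790, 2.56 and 0.775 at 18 months. Mff entered through the 3-month libraries alone, so its log2 change of -2.99 (SE 0.42, adjusted p = 0.000539) is partly set by the rule. Its highest base, 15 bases after the TSS, had 48, 65 and 258 reads at 3 months and at most 7 in any other library. Slc1a4, a transporter of neutral amino acids, is a spread member and had 35.3, 41.4 and 44.7 at 3 months, 13.4, 13.6 and 15.4 at 12 months and 3.96, 7.89 and 3.91 at 18 months. No 2 ages overlapped in Slc1a4, and its change was -2.89 (SE 0.36, adjusted p = 0.000304). In Tmem268 the PI of 105, 116 and 152 at 3 months compared with 8.79, 12.6 and 34.2 at 12 months and 21.0, 23.7 and 13.6 at 18 months. The later ages of Tmem268 overlapped each other and not the first, and the change at 18 months was -2.70 (SE 0.38, adjusted p = 0.000539).

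The largest falls changed with how window, gene body and reads were counted. With coding sequence ends, which move window and gene body together, of the 5 genes above only Mthfd2l and Slc1a4 stayed called. The values of Mff (0.16) and Tmem268 (0.34) turned upward there and that of Fam184a was -0.39. With a window from 20 to 100 bases after the TSS, 224 of the 345 members (64.9%) and 55.8% of the fitted genes were called, and Mthfd2l (-1.29), Mff (-0.71) and Tmem268 (-0.97) lost their calls. Mthfd2l also lost its call with at most 5 reads counted per position (-0.96) and with annotated gene ends (-1.16). The study's methods word the TSS as the beginning of the coding sequence, which is the setting with coding sequence ends, whereas the transcript start is used elsewhere here.

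At 12 against 3 months, 7 members were called for pausing (2.03%), all lower, beside 0.377% of the fitted genes. DESeq2 called 10 (12 of the fitted genes), and 143 had an unadjusted p under 0.05, as did 704 of the 2654 fitted genes. The median log2 change was -0.63 (-0.46 over the fitted genes). The 7 were Tmem268 (-2.88), Xylt2 (-2.37), Mthfd2l (-2.27), Mff (-2.24), Fcho2 (-2.17), Znrf3 (-1.75) and Dnmt3a (-1.36). Dnmt3a, a DNA methyltransferase, was named after its value was seen. Of the 7, 5 were single-position and 2 intermediate members, and 3 (Mff and Fcho2 by the PI, Mthfd2l by the window reads) had passed a limit through the 3-month libraries alone. Of the 289 members of which this was not so, 4 were called (1.38%), so part of the distance to 0.377% is set by the selection. Xylt2, which starts glycosaminoglycan chains, had a PI of 25.2, 70.8 and 78.6 at 3 months and of 7.36, 5.89 and 23.3 at 12 months. Fcho2, an early factor of clathrin-mediated endocytosis, went from 8.72, 14.6 and 24.4 to 5.22, 1.62 and 4.19. In both, all 12-month libraries lay below all 3-month libraries. The same held for Znrf3, a ubiquitin ligase that removes Wnt receptors, with 26.1, 30.1 and 42.5 against 10.4, 8.37 and 10.3 (SE 0.25, adjusted p = 0.00191). The count moved with single libraries. It was 16, 3 and 2 without 3-month replicate 1, 2 or 3, then 2 and 12 without 12-month replicate 2 or 3, and 38 and 64 without 18-month replicate 2 or 3.

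At 18 against 12 months no member was called in edgeR, and 0% of the fitted genes were, although 136 members and 665 of the 2654 fitted genes had an unadjusted p under 0.05. DESeq2 called 1 member. Without 18-month replicate 2, 132 members were called, and 0 without any other single library. The share of the fitted genes called without that library is not given here, so the 132 cannot be read as particular to the members. The median log2 change was -0.60 in members and -0.48 over the fitted genes. Spread members had a median of -0.58 at 12 against 3 months and -0.74 at 18 against 12 months, and single-position members -0.80 and 0.10. Without the highest position, the last value turned to -0.15, with 34 of 56 negative in place of 26, and differences between the read shapes were not tested. The 12-month libraries enter both steps, so these values are not independent.

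Both parts of the PI were tested on their own. Window reads fell in 250 of 345 members at 18 against 3 months (72.5%) and rose in none, beside 70.8% called among the fitted genes. The median log2 change was -1.15 in members and -0.97 over the fitted genes. Without 18-month replicate 3 there were 210 calls in members and without 18-month replicate 2 there were 280. The shares of the fitted genes in these fits are not given here.

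Gene-body reads, which measure transcription past the pause, were called in 56 members (16.2%), 43 higher and 13 lower, beside 11.7% of the fitted genes, of which 158 were higher and 153 lower. The median log2 change was 0.12 in members and 0.01 over the fitted genes. In the group chosen at 12 months, 40 were higher and 12 lower of 325. The gene body is also the denominator of the PI, and the 3-month libraries weigh most in the mean PI. Few gene-body reads at 3 months therefore favoured entry, so the excess of rises may be partly set by the selection. A called fall of pausing was found in 38 of the 43 members with more gene-body reads and in 4 of the 13 with fewer. Part of this contrast is built in, because a rise of the gene body lowers the tested ratio and a fall raises it. The corresponding shares of the fitted genes are not given here, so the contrast cannot be read as particular to the members. The count of 56 became 23, 24 and 11 without 3-month replicate 1, 2 or 3. It was 33 and 32 without 12-month replicate 2 or 3, and 30 and 29 without 18-month replicate 1 or 3. A set of 11 members was called whichever library was left out. The shares of the fitted genes in these fits are not given here.

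The largest rises were in Fam126a, Slc1a4, Enpp1, Cers6 and Gas2l3. Of these, Fam126a and Cers6 had become members through the 3-month libraries alone. Fam126a, part of the complex that brings a phosphatidylinositol kinase to the plasma membrane, had 0.233, 0.238 and 0.219 RPKM in the gene body at 3 months, 0.406, 0.747 and 0.509 at 12 months and 0.578, 0.532 and 0.571 at 18 months. All later libraries were above all 3-month libraries, and the log2 change at 18 months was 1.18 (SE 0.15, adjusted p = 0.00402). Its PI fell from 9.84, 10.4 and 12.5 to 2.59, 4.05 and 1.04, a call that was lost with coding sequence ends (-0.03). Enpp1, which makes pyrophosphate from ATP, had 0.310, 0.329 and 0.297 RPKM at 3 months and 0.555, 0.659 and 0.718 at 18 months. These groups did not overlap, with a change of 0.94 (SE 0.10, adjusted p = 0.00402). Slc1a4 rose by 1.15 (SE 0.25), the ceramide synthase Cers6 by 0.92 (SE 0.26) and Gas2l3, a cytoskeletal linker of dividing cells, by 0.91 (SE 0.26), with adjusted p values of 0.0234, 0.0493 and 0.0493. In Cers6 the 18-month replicate 2 (0.284 RPKM) lay below the 3-month replicate 1 (0.287 RPKM), so its groups overlapped, whereas those of Slc1a4 and Gas2l3 did not.

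The largest falls of gene-body reads were in Tent5a and Tent5c, noncanonical poly(A) polymerases, Adcy2, Cps1, the first enzyme of the urea cycle, and Slc25a33, a mitochondrial nucleotide carrier. Tent5a had 0.884, 0.849 and 0.707 RPKM at 3 months, 0.383, 0.468 and 0.314 at 12 months and 0.329, 0.391 and 0.408 at 18 months. Its 3-month libraries lay above all others, with a change at 18 months of -1.20 (SE 0.15, adjusted p = 0.00402), while its pausing was not called (0.57, SE 0.48, adjusted p = 0.285). Cps1 had 28.3, 29.2 and 33.4 RPKM at 3 months and 16.5, 18.3 and 21.4 at 18 months, again without overlap, a change of -0.81 (SE 0.17, adjusted p = 0.0198). The PI of Cps1 was 6.73, 4.98 and 4.76 at 3 months and 4.95, 6.397 and 3.95 at 18 months, with overlap and a change of -0.12 (SE 0.22, adjusted p = 0.643). Adcy2 fell by 0.96, Slc25a33 by 0.74 and Tent5c by 0.72 on the log2 scale. The mean gene-body level of Adcy2, 0.0107 RPKM, was the lowest of the fitted genes. It was 0.00972, 0.0172 and 0.0207 RPKM at 3 months and 0.00756, 0.00966 and 0.00912 at 18 months, where the groups almost touch. At 12 against 3 months, 18 members were called for gene-body reads (14 higher, 4 lower), beside 4.14% of the fitted genes. This count was 11, 5 and 6 without 3-month replicate 1, 2 or 3 and 8, 4 and 8 without 12-month replicate 1, 2 or 3.

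Upstream antisense reads come from polymerases that start at the same promoter and run the other way. They were tested in 339 members and fell in 139 (41.0%) at 18 against 3 months, with no rise, beside 39.1% called among the fitted genes. The median log2 change was -1.18 in members and -1.06 over the fitted genes. Without 18-month replicate 3, 87 were called. The largest fitted falls were in Carnmt1, a carnosine methyltransferase, Pdlim7, a PDZ and LIM domain protein of the cytoskeleton, and Slc16a10, a transporter of aromatic amino acids, with adjusted p values of 0.0365, 0.034 and 0.045. Carnmt1 had 4, 1 and 2 such reads at 3 months and 0 in each 18-month library. Pdlim7 had 3, 6 and 3 at 3 months and 0, 0 and 1 at 18 months, and Slc16a10 1, 3 and 7 against 0, 1 and 0, where the groups touch. These counts are too low for a fold change.

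Reads around the transcript end (± 200 bases) were called in 3 of 341 members tested, beside 2.46% of the fitted genes, with 45 of 341 members and 377 of 2645 fitted genes at an unadjusted p under 0.05. Cps1 was lower (-1.17, SE 0.22, adjusted p = 0.00106), and Fam126a (1.49, SE 0.40, adjusted p = 0.0305) was higher. Without 3-month replicate 1, 2 or 3, or without 18-month replicate 1, 1 member was called.

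The gene lists that follow are to be read beside the 66.7% of all fitted genes called for pausing at 18 against 3 months, 1769 of 2654 of them lower. Of the 30 regulators of pausing and early elongation listed, 9 were fitted genes and 1 was a member. Pausing fell in 6 of the 9 and rose in none (median log2 change -0.80), and none was called for gene-body reads. The member was Pcf11, a factor of transcript cleavage and termination, with a PI of 7.75, 5.86 and 5.85 at 3 months and 3.84, 3.37 and 1.80 at 18 months. These did not overlap, and the change was -1.16 (SE 0.29, adjusted p = 0.0039). The call was lost with at most 5 reads per position (-0.44), and the value turned with coding sequence ends (0.10).

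Immediate early and stress response genes had 17 fitted genes, with pausing lower in 15 (66.7% called over all fitted genes), and 2 members, Tob1 and Btg2. Btg2, a relative of Tob1, had a PI of 10.4, 12.5 and 6.10 at 3 months and 2.67, 3.51 and 1.98 at 18 months, a change of -1.77 (SE 0.32, adjusted p = 0.00117) with no overlap. Signalling genes had 32 fitted genes, of which 24 fell in pausing, and 4 members. These were Tgfbr1, a TGF-beta receptor (mean PI 68.5), Znrf3 (18.1), the Notch ligand Jag1 (10.1) and the cytokine receptor kinase Jak2 (6.78). Pausing fell in all 4, by 0.78, 1.48, 1.54 and 1.08 on the log2 scale, and the call was lost for Tgfbr1 without 3-month replicate 3 or 18-month replicate 3 and for Jak2 without 18-month replicate 3. Jag1 turned to 1.83 with the window from 20 to 100 bases, and with coding sequence ends neither Jag1 (-0.30) nor Jak2 (-0.03) was called.

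Chromatin genes had 20 fitted genes, with pausing lower in 14, and 3 members. Pausing fell in Hdac4 (-1.13, adjusted p = 0.0327), in H3f3a, which encodes histone H3.3 (-1.41, adjusted p = 0.00346), and in Hdac2, a histone deacetylase (-1.51, adjusted p = 0.00546). H3f3a lost its call with the window from 20 to 100 bases (-1.06), annotated gene ends (-0.52) and coding sequence ends (-0.26). Hdac4 lost its call with coding sequence ends (-0.08), turned with annotated gene ends (0.36) and lost its call without 3-month replicate 2 or 3 and without 18-month replicate 2 or 3. Its PI was 420, 664 and 592 at 3 months and 342, 217 and 212 at 18 months, and at 12 months it ranged from 64.9 to 386.

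For the lists of metabolism and of hepatocyte function, the shares of members were not tested against that of the fitted genes. Members were 1 of 21 fitted genes for secreted hepatocyte proteins, 1 of 18 cytochrome P450 genes (Cyp2j5), 1 of 21 genes of cholesterol and fatty acid metabolism (Pnpla3, a lipid droplet protein), 2 of 19 of glucose and amino acid metabolism (Igf1r, the receptor of insulin-like growth factor, and Cps1) and none of 20 liver transcription factors. Over all fitted genes the share of members was 13.0%. The median PI of these lists was 1.26, 1.40, 1.26, 1.33 and 1.57, against 2.33 over the fitted genes, and pausing fell in 3, 6, 16, 6 and 11 of their genes, beside 66.7% called over all fitted genes. Pnpla3 went from 8.22, 6.09 and 10.5 to 1.81, 3.13 and 3.04, a change of -1.60 (SE 0.34, adjusted p = 0.00171) without overlap. Cyp2j5 had 6.00, 4.82 and 5.35 at 3 months and 5.35, 4.43 and 4.95 at 18 months, with overlap and a change of -0.14 (SE 0.23, adjusted p = 0.59), and Igf1r changed by -0.41 (SE 0.39, adjusted p = 0.352). P450 genes belong to large families, where reads shared between copies may have been dropped, so the level of Cyp2j5 is uncertain.

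No member was found among 24 fitted splicing genes, 16 ribosomal and translation genes and 4 heat shock and chaperone genes, in which pausing fell in 21, 12 and 3, beside the same 66.7%. The clock list had 8 fitted genes with 7 falls and 1 member, Npas2, a partner of the clock factor BMAL1. Its PI was 27.0, 112 and 139 at 3 months, 50.1, 4.84 and 9.82 at 12 months and 34.0, 16.5 and 15.9 at 18 months, a change of -1.96 (SE 0.64, adjusted p = 0.0138). The 3- and 18-month libraries overlapped, and the call was lost with DESeq2 (-1.90), with annotated gene ends (-0.10), with coding sequence ends (-0.95) and when 3-month replicate 2 or 3, or 18-month replicate 2 or 3, was left out. Mitochondrial genes had 10 fitted genes with 5 falls and 2 members, Mff and Cox5a, a subunit of cytochrome c oxidase (-0.86, SE 0.29, adjusted p = 0.0182). The call of Cox5a was lost without 3-month replicate 1 or 2 and without 18-month replicate 1 or 3. The ubiquitin list had 19 fitted genes with 14 falls and the member Cul3, a scaffold of ubiquitin ligases (-0.93, SE 0.30, adjusted p = 0.0129), lost without 3-month replicate 1 or 18-month replicate 3. Membrane traffic had 15 with 14 falls and the member Rab2a, a GTPase of vesicle transport (-1.27, SE 0.28, adjusted p = 0.00207).

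Markers of other liver cells added 2 members, Dcn (decorin) and Reln (reelin), both of stellate cells or fibroblasts. Pausing fell in Reln (-0.97, SE 0.32, adjusted p = 0.014), and this was lost with coding sequence ends (-0.39) and without 3-month replicate 3 or 18-month replicate 3. Reln had entered through the 3-month libraries alone, so its fall is partly set by the rule. Dcn had a PI of 5.30, 5.86 and 5.08 at 3 months and 3.83, 4.63 and 4.25 at 18 months, without overlap, and its change of -0.34 (SE 0.25) was not called (adjusted p = 0.235). No endothelial, immune or bile duct marker was a member among 4, 5 and 1 fitted. The summed level of the 6 stellate markers was 4.35 to 5.27 RPKM at 3 months and 3.96 to 4.43 at 18 months, with overlap. That of the 9 immune markers was 18.9 to 23.4 and 15.5 to 18.0, and that of the 2 erythroid markers 10.6 to 13.6 and 7.25 to 10.2, both without overlap. The 6 endothelial markers summed to 5.96 to 7.86 and 6.51 to 8.31, and the 5 bile duct markers to 1.44 to 1.83 and 1.12 to 2.14, with overlap. No marker measured was at 0 in every library. The sum of the 10 hepatocyte markers was 1246 to 1599 RPKM at 3 months, 1196 to 1479 at 12 months and 991 to 1243 at 18 months, where the 3- and 18-month ranges did not overlap. The part of these levels in the changes of pausing was not tested.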

How the data were processed

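The authors deposited, for each of 9 libraries and each strand, the count of reads at every base with at least 1 read, with no scaling. Per the study's methods and the submitters' processing notes, reads were trimmed (cutadapt 1.13), aligned to GRCm38 (STAR 2.7.3a is named there), kept when unique and reduced to their 5′ base (bedtools 2.29.2). That base is the 3′ end of the nascent RNA. The treatment of random barcodes is not given in the sources used here, so counts may hold repeated copies of a molecule or be limited at the highest positions.

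Counts were summed per gene region in Python 3.11.15 (pysam 0.24.0, pandas 2.3.3, numpy 2.4.6, matplotlib 3.10.9 for plots). The TSS was the start of the transcript with the longest coding sequence. The methods of the study word it as the beginning of the coding sequence, which is run as an alternative. Motifs and sequences came from the RefSeq genome of the same build. Tests used edgeR 4.0.16 (R 4.3.3, limma 3.58.1) with TMM factors from gene-body counts and the quasi-likelihood F test, fitted to 2654 genes in all 9 libraries together. Pausing was the interaction of region with age, with a term per library. SE is the log2 change over the square root of F. The comparisons with 3 months share its libraries. DESeq2 1.42.0 was an alternative, beside other windows, filters, ends, thresholds and left-out libraries. The procedure was tested on simulated data. Values given as RPKM were computed from the counts.

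Genes were named by rule: the 10 highest PIs, the 5 with most window reads, those next to the threshold, the 5 largest called changes of pausing and of gene-body reads in each direction, the 3 largest of antisense reads, up to 5 members per gene list and up to 5 called at 12 months. One gene that the rule names is not reported here. The members, the gene lists and the tests were chosen with earlier results of these data known. Depth was 15003713 to 50707801 reads per library, which limits members with few window reads most, and p-values measure only the spread between these animals.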

Additional observations from a re-analysis of the deposited data

How the results depend on the processing

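The fall of pausing at 18 against 3 months was called in 37 of 65 members with a gene-body level above 1 RPKM, against 260 in the main fit. That share of 56.9% was below the 62.5% of the fitted genes, with median log2 changes of -0.91 and -0.85. It was called in 137 with coding sequence ends, in 420 of 546 genes at a PI threshold of 4 and in 170 of 239 at 6. Without single libraries 204 to 281 members were called, beside 42.9% to 75.5% of the fitted genes. For the other comparisons, the shares of the fitted genes without single libraries are not given here. At 12 against 3 months the 7 calls became 22 with no filter on low counts, 2 above 1 RPKM, 12 without exon ends and small RNAs, 23 with an intronic gene body, 17 with annotated gene ends, 2 with coding sequence ends and 2 when members with 50% or more at 1 position were not counted, and 2 to 64 without single libraries. At 18 against 12 months the count of 0 became 1 with DESeq2, no low-count filter, no exon ends and small RNAs, an intronic gene body or annotated gene ends, 11 with the window from 20 to 100 bases and 7 with at most 5 reads per position, and 0 to 132 without single libraries. Gene-body calls at 18 months went from 56 to 2 above 1 RPKM and 34 in introns (11 to 52 without single libraries), and at 12 months from 18 to 36 with DESeq2 and 1 above 1 RPKM (4 to 23). Window reads gave 41 above 1 RPKM (210 to 280), antisense reads 87 with DESeq2 and 30 above 1 RPKM (87 to 154), and transcript ends 1 with DESeq2 and 1 with annotated ends (1 to 3). The members numbered 936 with the window from 20 to 100 bases, 563 with an intronic body and 546 at the threshold of 4 (292 to 403 without single libraries). Only 176 of the 345 members were among the 936, and only 174 were among the 407 genes found with coding sequence ends. The median PI of the genes found was 9.94 with the window from 20 to 100 bases and 6.35 with at most 5 reads per position. It was 8.59 with a geometric mean, 5.58 at 4 and 9.38 at 6 (7.23 to 7.59 without single libraries). The causes were not tested.

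Of 932 values of 46 named genes, 844 kept their direction and side of the threshold, 45 lost the call, 8 gained it and 35 turned. Those that turned, as log2 changes at 18 against 3 months, were with coding sequence ends Bmp7 (0.0062), Tob1 (0.084), Clint1 (-0.88), Mff (0.16), Tmem268 (0.34), Gas2l3 (0.28), Pdlim7 (0.092) and Pcf11 (0.10), with annotated gene ends Csnk1e (-0.98), Hdac4 (0.36) and Pdlim7 (0.30), with the window from 20 to 100 bases Mboat2 (0.42), Adcy2 (2.94), Csnk1e (-0.10), Clint1 (-1.55) and Jag1 (1.83), with at most 5 reads per position Mboat2 (0.53), Bmp7 (0.18), Adcy2 (0.18), Csnk1e (-0.36), Clint1 (-0.89), Cps1 (0.30), Tent5c (0.017), Npas2 (0.21) and Igf1r (0.28), without the highest position Cdk14 (-0.22) and Tent5a (-0.55), and with an intronic gene body Cdk14 (-0.0041). Without single libraries the value of Cdk14 ran from -0.083 to 0.12, that of Csnk1e from -0.10 to 0.22 and that of Cps1 from -0.30 to 0.057.

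Same-numbered libraries deviated from their group means together by correlations of -0.318 to 0.139 for gene-body reads and -0.143 to 0.112 for pausing, so the numbers were not taken to pair animals. With the replicate number as a block, the counts of members called were 264 for pausing at 18 against 3 months, 27 at 12 against 3 and 1 at 18 against 12, and for gene-body reads 29 at 18 and 10 at 12 months. The alternatives that leave out the highest position, or do not count members with 50% or more there, were chosen after seeing the data. Members with few window reads limit what can be told, since the limit was a mean of 20 reads.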
